A study of Mus musculus with 50 samples.

Results

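The enzymes of haem synthesis were described through 7 genes of the pathway, Alas1, Alad, Uros, Urod, Cpox, Ppox and Fech, in fetal and maternal liver of CD-1 mice, an outbred stock, exposed during pregnancy to perfluorooctanoic acid (PFOA) or to hexafluoropropylene oxide-dimer acid (HFPO-DA, called GenX). The members were chosen by gene symbol in the array annotation, each was read by 1 probe set, and they are 7 of the 30743 genes that were tested. Pregnant mice received the compounds by daily gavage from embryonic day 1.5, and livers were taken on gestational day 17.5 (50 Affymetrix arrays, 1 liver each). The exposed groups were PFOA at 1 mg/kg/day (PFOA1) and at 5 mg/kg/day (PFOA5), and GenX at 2 mg/kg/day (GenX2) and at 10 mg/kg/day (GenX10); the control group received vehicle. The fetal groups held 5 fetuses except PFOA5 with 6 and GenX10 with 4, and each of the 5 maternal groups held 5 dams. Fetuses were drawn at random, 1 per litter, and were exposed only through the dam; the labels do not say which fetus belongs to which dam, so the tissues were treated as independent. PFOA and GenX were given at different doses, so their values are set side by side and were not tested against each other. The comparisons made are each exposure with its control, high with low dose, fetal with maternal control liver, and the effect of an exposure in fetal with that in maternal liver.

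Haem is the iron-porphyrin cofactor of haemoglobin, of cytochromes P450, of catalase and of respiratory cytochromes. Its synthesis starts and ends in mitochondria: 5-aminolevulinate synthase joins glycine and succinyl-CoA, cytosolic enzymes build the porphyrin ring, and ferrochelatase inserts iron. The first step has a pair of isoenzymes, Alas1, which is present in all tissues, limits the rate in hepatocytes and is held down by haem itself, and Alas2, which serves erythroid cells. Adult liver makes haem largely for cytochromes P450, whereas fetal liver at this stage is also a site of red cell formation. Alad condenses the product of the first step into porphobilinogen, Uros closes the ring, Urod decarboxylates uroporphyrinogen, Cpox and Ppox oxidise the ring in mitochondria, and Fech is ferrochelatase.

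Levels are log2 signals of single arrays. The words not well above background are used of a gene in a group when each of the group's arrays had it at or below that array's 95th percentile of negative control features, which was between 7.37 and 8.18. Changes are log2 differences ± standard error, and a gene was called higher or lower at a limma adjusted p under 0.05 over all 30743 genes. Array medians lay between 5.15 and 5.34, and 4393 to 7488 genes per array were above background. In every fetal group 11 or 12 of 14 measured erythroid markers and 11 or 12 of 14 measured hepatocyte markers were above background on every array. In maternal liver 13 of the 14 erythroid markers were not well above background in any group, and all 14 hepatocyte markers were above it on every array. Although the labels give female fetuses, Xist, an RNA made from the inactive X, was at 5.39 in control fetus 3 and at 4.50 in GenX2 fetus 2. The source names of PFOA5 fetus 6 and GenX2 fetus 5 give other groups than their titles, which were followed.

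Promoter windows of 300 bases (250 before and 50 after the transcription start, RefSeq, build GRCm38.p6) were taken for 6 of the 7 genes, 9 windows in all. Fech was not searched. Windows are shown for the gene that responded most in dams, for the later enzyme called with it, and for the erythroid isoenzyme Alas2. Capitals mark matches on either strand to 6 short motifs of factors known from liver or erythroid genes: AGGTCA (nuclear receptor sites), AGATAA (zinc-finger factors such as Gata1), CCACACCC (KLF1), TGACNNNGC (antioxidant response element), GCGCATGC (NRF1) and TGTTTAC (forkhead factors). The windows lie at chr9:106247681-106247980 (minus strand) for Alas1, chr16:58669958-58670257 (plus strand) for Cpox and chrX:150547167-150547466 (plus strand) for Alas2.
Alas1: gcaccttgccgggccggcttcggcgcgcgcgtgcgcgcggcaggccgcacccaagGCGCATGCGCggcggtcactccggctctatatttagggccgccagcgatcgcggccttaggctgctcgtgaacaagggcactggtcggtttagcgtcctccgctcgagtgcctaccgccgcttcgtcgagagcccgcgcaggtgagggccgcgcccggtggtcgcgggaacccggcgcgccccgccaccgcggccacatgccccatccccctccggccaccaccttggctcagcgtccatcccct
Cpox: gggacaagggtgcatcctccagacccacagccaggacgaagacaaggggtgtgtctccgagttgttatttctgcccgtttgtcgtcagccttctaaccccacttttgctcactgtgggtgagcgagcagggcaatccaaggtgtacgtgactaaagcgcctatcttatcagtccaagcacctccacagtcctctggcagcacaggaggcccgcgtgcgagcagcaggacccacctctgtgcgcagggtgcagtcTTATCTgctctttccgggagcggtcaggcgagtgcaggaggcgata
Alas2: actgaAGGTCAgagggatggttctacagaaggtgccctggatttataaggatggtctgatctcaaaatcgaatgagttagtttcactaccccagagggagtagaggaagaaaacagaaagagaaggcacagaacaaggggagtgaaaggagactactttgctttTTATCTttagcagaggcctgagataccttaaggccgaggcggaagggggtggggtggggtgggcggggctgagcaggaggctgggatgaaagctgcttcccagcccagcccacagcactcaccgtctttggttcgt
In Alas1 the letters GCGCATGC occur on both strands in overlapping positions, starting at position -195, counted from 0 at the start base. The same bases lie in the other Alas1 window, chr9:106247905-106248204, which begins upstream and overlaps it. There they start at position 29, downstream of that window's own start base. Of all 32851 RefSeq mouse promoter windows of this length, 2.71% held this motif. The Cpox window held AGATAA on the reverse strand, beginning at position 4, and the Alas2 window held it on the reverse strand at position -86; 11.2% of all windows held it. Alas2 also held AGGTCA, found in 16.3% of all windows. The windows of Alad, Uros, Urod and Ppox held none of the 6 motifs, of which CCACACCC occurred in 3.56%, TGACNNNGC in 12.4% and TGTTTAC in 3.65% of all windows. No binding was measured.

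In maternal liver the first enzyme stood apart. Alas1 was 3.21-fold higher in PFOA5 dams and 2.50-fold higher in GenX10 dams than in control dams, while Uros, Urod and Ppox were called in no exposed maternal group. Cpox rose in PFOA5, GenX2 and GenX10 dams, Fech rose in both GenX groups, and Alad fell in PFOA5 dams. Of the 7 genes 2 were called higher and 1 lower in PFOA5 dams, beside 10.8% of all genes higher and 9.04% lower. In GenX2 dams 3 were higher (2.43% of all genes) and in GenX10 dams 3 were higher (7.55% of all genes). None was called in PFOA1 dams, where 0.0325% of all genes were called in either direction and 1 of the 7, Alas1, had an unadjusted p under 0.05. The median log2 difference of the 7 genes was 0.03 in PFOA5, 0.13 in GenX2 and 0.08 in GenX10 dams, against -0.05, -0.03 and -0.05 over all genes.

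Alas1 (5-aminolevulinate synthase of all tissues) lies on chromosome 9 (GRCm38.p6, 106233455 to 106247954). Its log2 signals were 10.36, 10.06, 10.21, 10.56 and 10.23 in PFOA5 dams, against 9.06, 8.39, 8.71, 8.44 and 8.41 in control dams. Every PFOA5 dam was above every control dam, by a difference of 1.68 ± 0.16 (adjusted p = 7.6e-08). GenX10 dams had 10.13, 9.99, 9.79, 9.91 and 9.80, also all above the control dams, and the difference was 1.32 ± 0.16 (adjusted p = 3.7e-06). Both calls were kept when any single array was left out and under each alternative setting, with differences of 1.50 to 1.80 and of 1.18 to 1.44.

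At the lower doses the Alas1 ranges overlapped those of control dams. GenX2 dams had 8.81, 9.17, 9.51, 9.24 and 9.50, and the difference of 0.65 ± 0.16 was called (adjusted p = 0.025). That call was lost without control dam 2, 4 or 5 or without GenX2 dam 3 or 5 (adjusted p 0.067 to 0.079), and after a repeated quantile normalization (adjusted p = 0.069). It was also lost in a fit of only the groups compared (0.0503) and with the replicate number as a block (0.0501). PFOA1 dams had 8.58, 9.70, 9.17, 9.38 and 9.07, a difference of 0.58 ± 0.16 that was not called (adjusted p = 0.43). PFOA1 dam 1 was the lowest of its group, and without it the difference was 0.73 ± 0.15 and was called (adjusted p = 0.023). The order of Alas1 over all 10 groups was PFOA5, GenX10, GenX2, PFOA1 and control dams, then GenX10, GenX2, PFOA5, PFOA1 and control fetuses. In that order the ranges of neighbouring groups overlapped except between GenX10 and GenX2 dams.

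**Figure D1:**
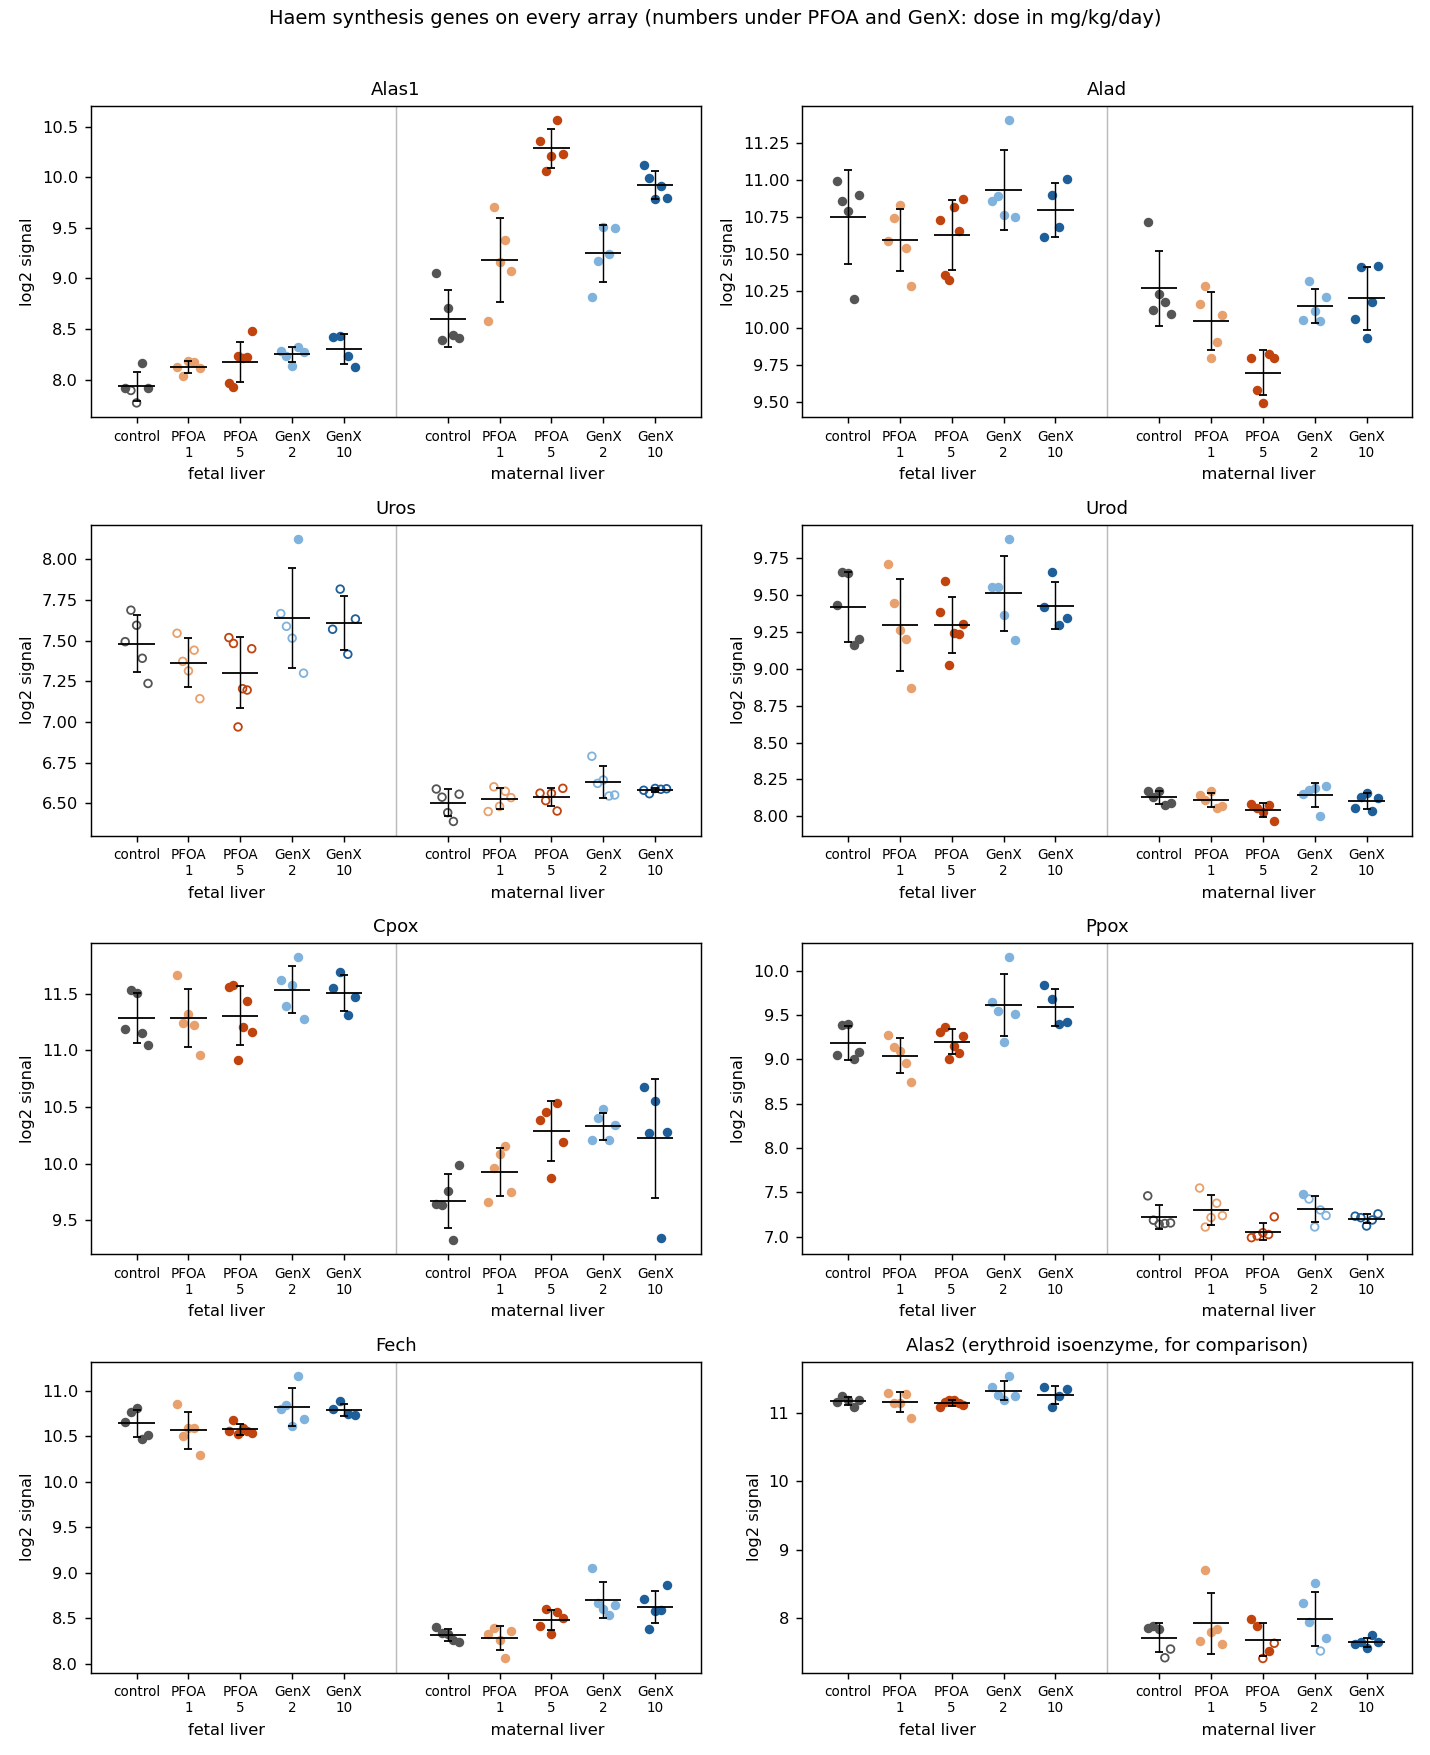
Log2 signal of the 7 haem synthesis genes and of Alas2 on each of the 50 arrays, by tissue and group, with 1 point per liver, the group mean as a line and the standard deviation as a bar; open points lie at or below the array's background percentile and the numbers are doses in mg/kg/day. Alas1 in PFOA5 dams (10.06 to 10.56) and GenX10 dams (9.79 to 10.13) sits above control dams (8.39 to 9.06), while Urod, Cpox, Ppox, Fech and Alas2 are higher on every fetal array than on any maternal array.

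Alad (porphobilinogen synthase; chromosome 4, 62505984 to 62520063) was the only member called lower in an exposed group of dams than in control dams. It was at 9.80, 9.58, 9.49, 9.83 and 9.79 in PFOA5 dams, against 10.71, 10.12, 10.23, 10.17 and 10.10 in control dams. The ranges did not overlap, and the difference was -0.57 ± 0.11 (0.675-fold, adjusted p = 0.00095). Control dam 1 lay above the other control dams. Over all alternatives, which include leaving out that dam, the difference stayed between -0.74 and -0.46 and was called each time. Alad did not pass the test in PFOA1 dams (-0.22 ± 0.11), GenX2 dams (-0.12 ± 0.11) or GenX10 dams (-0.07 ± 0.11).

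Cpox (coproporphyrinogen oxidase; chromosome 16, 58670208 to 58680391) had 10.38, 10.45, 9.88, 10.54 and 10.19 in PFOA5 dams, against 9.64, 9.63, 9.76, 9.32 and 9.99 in control dams, a rise of 0.62 ± 0.18 (1.54-fold, adjusted p = 0.016) with overlapping ranges. In GenX2 dams it was at 10.21, 10.41, 10.48, 10.21 and 10.34, all above the control dams (0.66 ± 0.18, 1.58-fold, adjusted p = 0.038). In GenX10 dams it was at 10.68, 10.27, 10.55, 9.34 and 10.27, with dam 4 at control level (0.55 ± 0.18, 1.47-fold, adjusted p = 0.040). The sizes at the 3 exposures lay within each other's intervals (95% interval 0.25 to 0.99 for PFOA5, 0.29 to 1.03 for GenX2 and 0.19 to 0.92 for GenX10). These calls lay close to the threshold. After a repeated quantile normalization all 3 were lost (adjusted p = 0.0843 for PFOA5, 0.0576 for GenX2 and 0.116 for GenX10), and the call in GenX10 dams was lost in a fit of only the groups compared (0.0974). With the replicate number as a block the calls in GenX2 (0.058) and GenX10 dams (0.0524) were lost. The call in PFOA5 dams was lost without control dam 4 or PFOA5 dam 4, the call in GenX2 dams without any 1 of control dams 1 to 4 or GenX2 dams 1, 2, 3 and 5, and that in GenX10 dams without any 1 of control dams 1 to 4 or GenX10 dams 1, 2, 3 and 5 (adjusted p up to 0.051, 0.118 and 0.144).

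Fech (ferrochelatase) rose in both GenX groups. Its signals were 9.05, 8.67, 8.60, 8.54 and 8.64 in GenX2 dams, against 8.41, 8.34, 8.32, 8.26 and 8.24 in control dams, with no overlap and a difference of 0.39 ± 0.09 (1.31-fold, adjusted p = 0.014). GenX10 dams had 8.71, 8.39, 8.58, 8.59 and 8.87, and the difference was 0.31 ± 0.09 (1.24-fold, adjusted p = 0.023). The GenX10 call was lost without control dam 4 or 5 or GenX10 dam 1 or 5 (adjusted p 0.050 to 0.077) and after a repeated quantile normalization (adjusted p = 0.086); the GenX2 call was kept in each case. In PFOA5 dams Fech was at 8.42, 8.60, 8.32, 8.57 and 8.50, a difference of 0.17 ± 0.09 that was not called (adjusted p = 0.18). In PFOA1 dams the difference was -0.03 ± 0.09.

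Urod, Uros and Ppox had small differences in dams, none of them called. Urod (uroporphyrinogen decarboxylase; chromosome 4, 116989965 to 116994436) was between 7.97 and 8.20 on all 25 maternal arrays, and its differences ran from -0.09 ± 0.05 in PFOA5 dams to 0.02 ± 0.05 in GenX2 dams. For PFOA5 dams the 95% interval was -0.18 to 0.01. After a repeated quantile normalization Urod was called lower in PFOA5 dams (-0.19, adjusted p = 0.0021) and in GenX10 dams (-0.13, adjusted p = 0.048). Uros (uroporphyrinogen III synthase; chromosome 7, 133686142 to 133710467) was not well above background in any maternal group, so its maternal values bound only what this probe set could show. Ppox (protoporphyrinogen oxidase; chromosome 1, 171276991 to 171281193) was above background on 1 of the 25 maternal arrays, a GenX2 dam, and its differences from control ran from -0.16 ± 0.08 in PFOA5 dams to 0.09 ± 0.08 in GenX2 dams.

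Some cell type markers were called in dams as well. In PFOA5 dams (10.8% of all genes higher and 9.04% lower) 4 of 10 macrophage markers were higher, among them C1qb (0.73, above background on 5 of 5 PFOA5 and 3 of 5 control dam arrays). Of the others, Vsig4 was above background on 4 of 5 PFOA5 and 1 of 5 control dam arrays. Cd68 was above it on 3 of 5 PFOA5 and no control dam arrays, and Adgre1 was not well above background in PFOA5 or control dams. Lower in PFOA5 dams were 3 of 10 endothelial and stellate markers, among them Reln (-0.83) and Des, which was not well above background in PFOA5 or control dams. Of 10 granulocyte markers 2 were called lower in PFOA5 dams, but all 10 were not well above background in each maternal group. Of 14 erythroid markers 1, Tal1, was called lower in PFOA5 dams, a share near that of all genes, and it was not well above background in PFOA5 or control dams. The mean log2 signal of the macrophage markers was 6.89 to 7.68 in PFOA5 dams, with 4 of the 10 not well above background, and 6.71 to 7.52 in control dams, with 5 of the 10 not well above it. In GenX10 dams (7.55% of all genes higher and 6.22% lower) 2 of 10 macrophage markers, C1qb and Cd68, were higher (mean of the 10 markers 7.23 to 7.78). Cd68 was above background on 2 of 5 GenX10 and no control dam arrays. In the same dams 1 of 10 endothelial and stellate markers, Reln (-0.63), and 1 of 14 erythroid markers, Tal1, were called lower. In GenX2 dams (2.43% higher and 0.937% lower) 1 of 10 granulocyte markers was called lower. Of 14 hepatocyte markers 1 was higher and 1 lower in PFOA5 dams, and 1 was higher in each GenX group, which are shares near those of all genes or, for 1 of 14 in GenX2 dams, above it. The part of these shifts in the results for the haem genes was not tested. In bulk tissue, fewer cells of a type and less RNA per cell cannot be told apart.

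**Figure D2:**
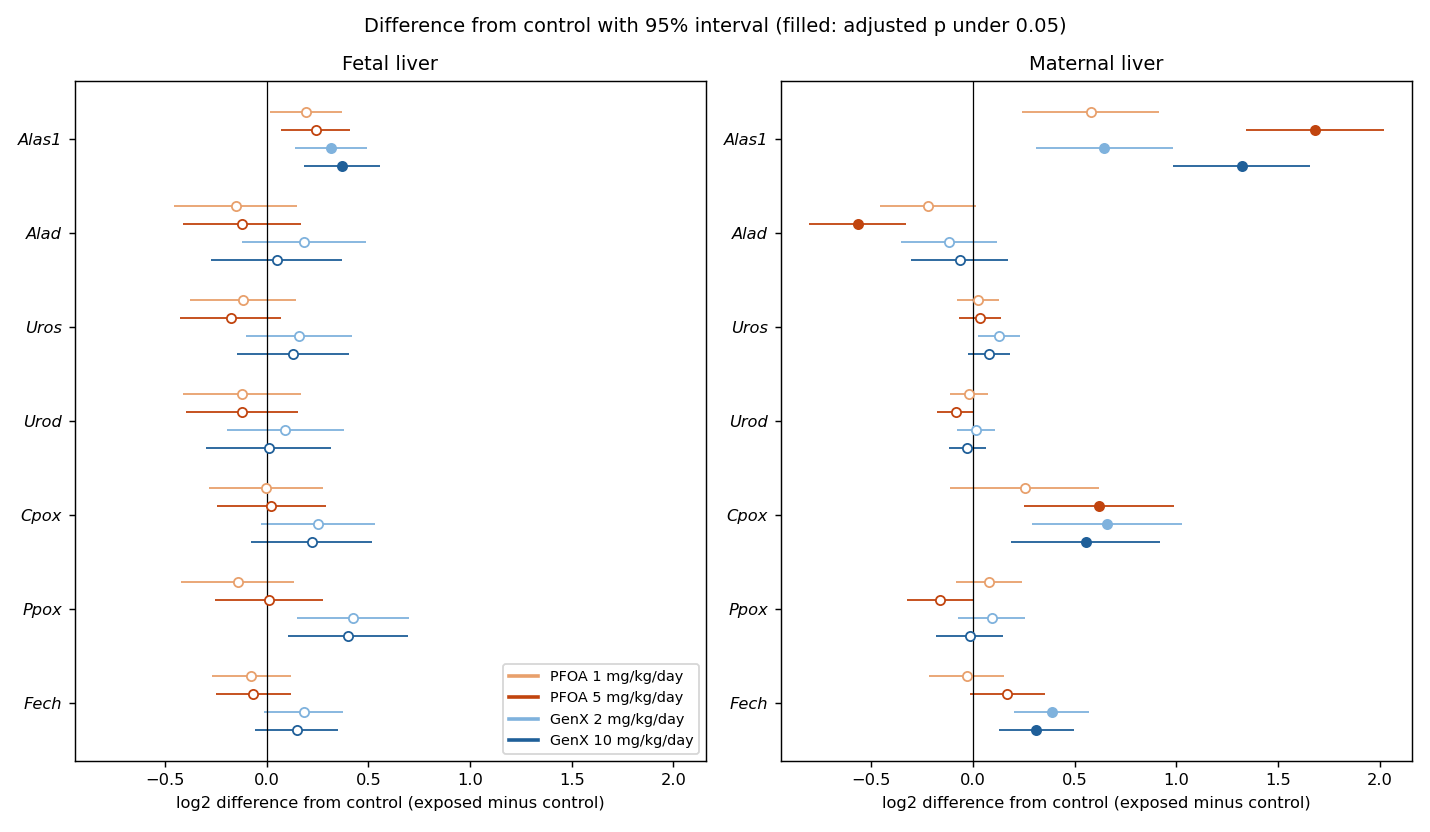
Log2 difference from control (exposed minus control) of each gene at the 4 exposures, in fetal liver (left) and maternal liver (right), with the 95% confidence interval as a line; filled points were called at an adjusted p under 0.05. Alas1 in PFOA5 dams (1.68) and GenX10 dams (1.32) stands far from the other values, and in fetal liver only the Alas1 points of GenX2 (0.32) and GenX10 (0.37) are filled.

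Between doses, Alas1 was 2.15-fold higher in PFOA5 dams than in PFOA1 dams (1.10 ± 0.16, adjusted p = 4.9e-05), with no overlap and the call kept under every alternative. Alad was lower by a difference of -0.35 ± 0.11 (adjusted p = 0.037), and the signal of Ppox, not well above background in either group, differed by -0.24 ± 0.08 (adjusted p = 0.038). Thus 1 of the 7 was higher, beside 10.2% of all genes, and 2 were lower, beside 8.52%. The Alad call was lost without PFOA1 dam 1, 2 or 5 or PFOA5 dam 2 or 3, the Ppox call without PFOA1 dam 1 or 4 or PFOA5 dam 1, 2, 3 or 4, and both after each array was centred on its median (adjusted p 0.12 and 0.15); the Ppox call was also lost in a fit of only the groups compared (adjusted p = 0.067). GenX10 dams had higher Alas1 than GenX2 dams on every array, by 0.68 ± 0.16, but this was not called (adjusted p = 0.11), in a comparison where 0.237% of all genes were called. Restricting the test to genes above background brought it to an adjusted p of 0.047. No other member was called between the GenX doses in dams.

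In fetal liver Alas1 was the only member called, and only in the GenX groups. It was at 8.43, 8.43, 8.23 and 8.13 in GenX10 fetuses, against 7.92, 7.89, 7.77, 8.16 and 7.92 in control fetuses, of which 3 of 5 were above background. The difference was 0.37 ± 0.09 (1.29-fold, adjusted p = 0.011). GenX2 fetuses had 8.29, 8.24, 8.13, 8.33 and 8.27 (0.32 ± 0.09, 1.25-fold, adjusted p = 0.024). In both groups 1 control fetus, number 4, reached into the exposed range. Alas1 was thus the 1 member called higher in GenX10 fetuses, beside 4.42% of all genes, and the 1 called higher in GenX2 fetuses, beside 3.90%. The median difference of the 7 genes was 0.15 in GenX10 fetuses and 0.18 in GenX2 fetuses, against -0.06 and -0.03 over all genes.

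The fetal Alas1 calls were narrow. In GenX10 fetuses the call was lost without fetus 1 (adjusted p = 0.054) and after a repeated quantile normalization (adjusted p = 0.054). In GenX2 fetuses it was lost without control fetus 1, 2, 3 or 5 or GenX2 fetus 4 (adjusted p 0.050 to 0.071), with array weights (adjusted p = 0.054), after a repeated quantile normalization (adjusted p = 0.11) and without the 2 fetuses of low Xist (adjusted p = 0.088). PFOA5 fetuses had Alas1 at 7.96, 7.93, 8.23, 8.22, 8.22 and 8.48, a difference of 0.24 ± 0.08 that was not called (adjusted p = 0.13); without control fetus 4 or PFOA5 fetus 2 it was called (adjusted p = 0.049 and 0.043). In PFOA1 fetuses the difference was 0.19 ± 0.09 (adjusted p = 0.56).

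No member was called in PFOA5 fetuses (3.39% of all genes called in either direction) or in PFOA1 fetuses (0.953%); in each, 1 member, Alas1, had an unadjusted p under 0.05. Among the fetal comparisons with control, Ppox in GenX fetuses had the largest differences that were not called. Its signals were 9.65, 9.55, 9.19, 10.15 and 9.51 in GenX2 fetuses, against 9.05, 9.39, 9.40, 9.01 and 9.08 in control fetuses (0.42 ± 0.13, adjusted p = 0.057). GenX10 fetuses had 9.84, 9.67, 9.40 and 9.42 (0.40 ± 0.14, adjusted p = 0.078), with the lowest of them just above the highest control fetus. It passed in both groups when the test was restricted to genes above background (adjusted p = 0.025 and 0.045), and in GenX2 fetuses also without GenX2 fetus 3 or control fetus 2 or 3. In PFOA5 fetuses the Ppox difference was 0.01 ± 0.13 and in PFOA1 fetuses -0.14 ± 0.13.

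Cpox differed from control by 0.25 ± 0.14 in GenX2 fetuses and by 0.22 ± 0.14 in GenX10 fetuses, and Fech by 0.18 ± 0.09 and 0.15 ± 0.10, none of them called. Alad, Uros and Urod had differences between -0.18 ± 0.12 (Uros in PFOA5 fetuses) and 0.18 ± 0.15 (Alad in GenX2 fetuses). GenX2 fetus 4 was the highest of all fetal arrays for Alad (11.40), Uros (8.13), Urod (9.88), Cpox (11.83), Ppox (10.15) and Fech (11.17). No member was called between PFOA5 and PFOA1 fetuses (0.0488% of all genes called, no member at an unadjusted p under 0.05). The same held between GenX10 and GenX2 fetuses, where limma called 0% of all genes (0 genes, and 619 genes at an unadjusted p under 0.05).

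Beside these values stand the markers of liver cells. Of 14 hepatocyte markers 1 was higher and 1 lower in PFOA5 fetuses, 2 were higher and 2 lower in GenX2 fetuses, 1 was higher and 2 lower in GenX10 fetuses, and 1 was higher in PFOA1 fetuses. Of 10 macrophage markers 3 were lower in GenX10 fetuses, and 1 each, Csf1r, in GenX2 and PFOA5 fetuses. Among the 3, C1qa and Cd163 were not well above background in GenX10 or control fetuses. Of 10 endothelial and stellate markers 1 was higher and 1 lower in PFOA5 and in GenX2 fetuses, and 1 was lower in GenX10 and in PFOA1 fetuses. The higher one, Des, was above background on 2 of 6 PFOA5 and 1 of 5 GenX2 arrays and on no control fetus array. Of all genes 2.34% were higher and 1.05% lower in PFOA5 fetuses, 3.90% and 2.83% in GenX2 fetuses, 4.42% and 4.85% in GenX10 fetuses, and 0.842% and 0.111% in PFOA1 fetuses. The part of these markers in the values of the haem genes was not tested.

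The tissue difference was tested directly, as the effect in fetal liver minus the effect in maternal liver. For Alas1 it was -1.44 ± 0.19 at PFOA5 (95% interval -1.82 to -1.07, adjusted p = 7.7e-07) and -0.95 ± 0.20 at GenX10 (-1.35 to -0.56, adjusted p = 0.0025). So 1 member had a lower effect in fetal than in maternal liver at each of these exposures, beside 2.71% of all genes at PFOA5 and 1.30% at GenX10, and both calls were kept under every alternative. At PFOA1 and GenX2 no member was called, beside 0.179% and 1.28% of all genes. In each, 1 member had an unadjusted p under 0.05, Alas1 at PFOA1 (-0.38 ± 0.19) and Ppox at GenX2 (0.33 ± 0.16). Ppox was above background on 1 of 5 GenX2 and no control dam arrays, so the maternal side of its difference lay near background. The Cpox effect at PFOA5 differed by -0.60 ± 0.23, which was not called (adjusted p = 0.14) except with array weights (-0.72, adjusted p = 0.022).

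Between unexposed livers of fetuses and dams all 7 genes passed the test. In control fetuses 6 of the 7 genes were called higher than in control dams (20.0% of all genes were) and 1, Alas1, was lower (42.2% of all genes were); 1 of the 6, Uros, was not well above background in either tissue. The median difference of the 7 was 1.29, against -0.13 over all genes. Fech was at 10.65, 10.76, 10.81, 10.47 and 10.51 in control fetuses, against 8.41, 8.34, 8.32, 8.26 and 8.24 in control dams, which is 5.02-fold (2.33 ± 0.09, adjusted p = 3.8e-25). Ppox was at least 2.97-fold higher in control fetuses, given as a bound since it was not well above background in control dams (mean signals of 9.19 in control fetuses and 7.22 in control dams, adjusted p = 2.1e-19). Cpox was 3.07-fold higher (1.62 ± 0.16, adjusted p = 1.8e-11), at 11.19, 11.54, 11.51, 11.15 and 11.05 in control fetuses.

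Urod was 2.45-fold higher in control fetuses than in control dams (1.29 ± 0.11, adjusted p = 3.7e-14). Alad was 1.40-fold higher (0.48 ± 0.14, adjusted p = 0.0024). Its ranges overlapped only through control fetus 4, at 10.20, against 10.10 to 10.71 in control dams. The Alad call was lost after a repeated quantile normalization (adjusted p = 0.065). Uros was not well above background in either tissue, and its signal difference was 0.98 ± 0.10 (adjusted p = 1.2e-11). Alas1 went the other way: its control fetuses (7.77 to 8.16) lay below all control dams (8.39 to 9.06), a difference of -0.67 ± 0.13 (0.629-fold, adjusted p = 4.9e-05). The erythroid isoenzyme Alas2 was 11.1-fold higher in control fetuses (3.47 ± 0.14, adjusted p = 5.3e-25), at 11.16, 11.25, 11.18, 11.09 and 11.20, against 7.86, 7.89, 7.83, 7.42 and 7.55 in control dams. Erythroid markers moved with these genes: all 14 were higher in control fetuses, with a mean log2 signal of 9.27 to 9.61 against 6.31 to 6.41 in control dams, where 13 of the 14 were not well above background. Granulocyte markers (10 of 10) and megakaryocyte markers (5 of 5) were higher as well, and 10 of 14 hepatocyte markers were lower. Not well above background in either control tissue were the granulocyte markers Elane, Prtn3, Ctsg and Ly6g. The same held for the megakaryocyte markers Itga2b and Gp6 and the erythroid marker Gata1. The part of cell makeup in the differences of the haem genes was not tested here.

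**Figure D3:**
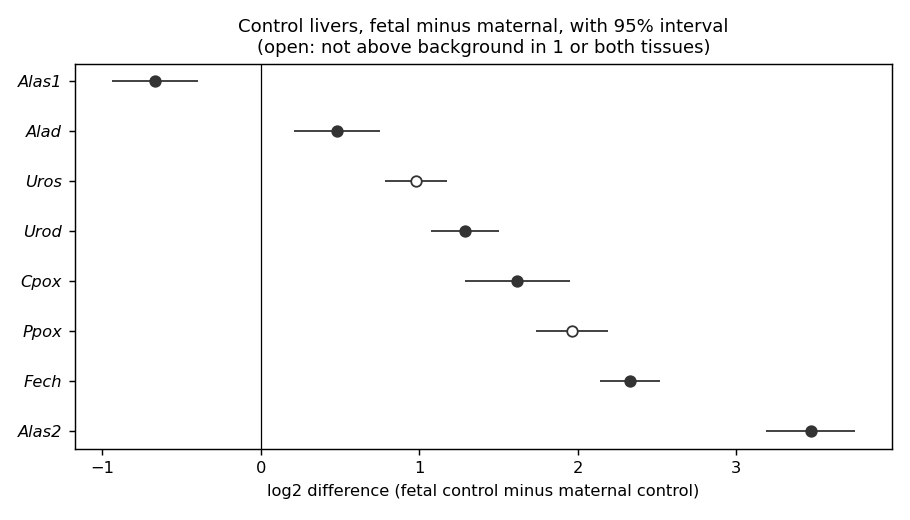
Log2 difference between control fetuses and control dams (fetal minus maternal, 5 arrays each) for each gene in pathway order and for Alas2, with the 95% confidence interval as a line; open points mark genes not well above background in 1 or both tissues. Alas1 is at -0.67, the later enzymes run from 0.48 (Alad) to 2.33 (Fech), and Alas2 is at 3.47.

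Across the 25 fetal arrays, the enzymes after Alas1 followed the erythroid markers. The correlation of a gene's log2 signal with the mean of the 14 measured erythroid markers was r = 0.95 (Spearman's rho = 0.91) for Urod, 0.93 (0.92) for Uros, 0.90 (0.86) for Fech and 0.85 (0.79) for Cpox; each permutation p was 1e-05, the smallest the permutations can give, and 3.2e-05 (r) and 4.0e-05 (rho) after adjustment over 16 relations (7 members and Alas2 in 2 tissues). Ppox had r = 0.79 (adjusted permutation p = 3.2e-05) and rho = 0.72 (0.00038), and Alad r = 0.70 (0.00053) and rho = 0.53 (0.020). Alas1 showed no such relation (r = -0.00, rho = -0.01, permutation p = 0.996 and 0.960). Alas2 had r = 0.65 (adjusted permutation p = 0.0013) and rho = 0.48 (0.034). The permutations shuffled arrays across the groups of a tissue, so their p does not separate differences between groups from those within them. How many other genes follow the marker mean as closely was not counted.

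With the 2 arrays farthest from the median of the marker mean left out, r was 0.91 for Urod and Uros, 0.80 for Fech, 0.79 for Cpox, 0.62 for Ppox, 0.47 for Alad and 0.30 for Alas2, so the relations of Alad and Alas2 rest in part on those arrays. Within groups, after removal of each group's mean, r was 0.96 for Urod, 0.91 for Uros, 0.87 for Fech, 0.85 for Cpox, 0.79 for Ppox and 0.60 for Alad, and -0.21 for Alas1. GenX2 fetus 4, the highest array for 6 members, also had the highest marker mean (10.01), and PFOA1 fetus 5 had the lowest (8.99). Uros and the marker mean correlated although only 1 of the 25 fetal arrays had Uros above background. In the same arrays the correlation with the mean of the hepatocyte markers was -0.64 for Urod and Uros, -0.55 for Cpox and 0.36 for Alas1, given as a description. The marker mean was 9.42 to 9.72 in GenX10 fetuses and 9.35 to 10.01 in GenX2 fetuses, against 9.27 to 9.61 in control fetuses, and 1 of the 14 markers, Slc4a1 in GenX2 fetuses, was called higher (0.24). The part of this in the Ppox and Cpox differences of GenX fetuses was not tested. In the 25 maternal arrays no member was related to the marker mean after adjustment (r between -0.41 for Fech and 0.27 for Alad, adjusted permutation p at least 0.089). Only 1 of the 14 markers, Tfrc, was above background on any maternal array (20 of 25). Its maternal signals ran from 5.77 to 9.62, the widest range of the 14, so the maternal marker mean says little about the other markers.

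**Figure D4:**
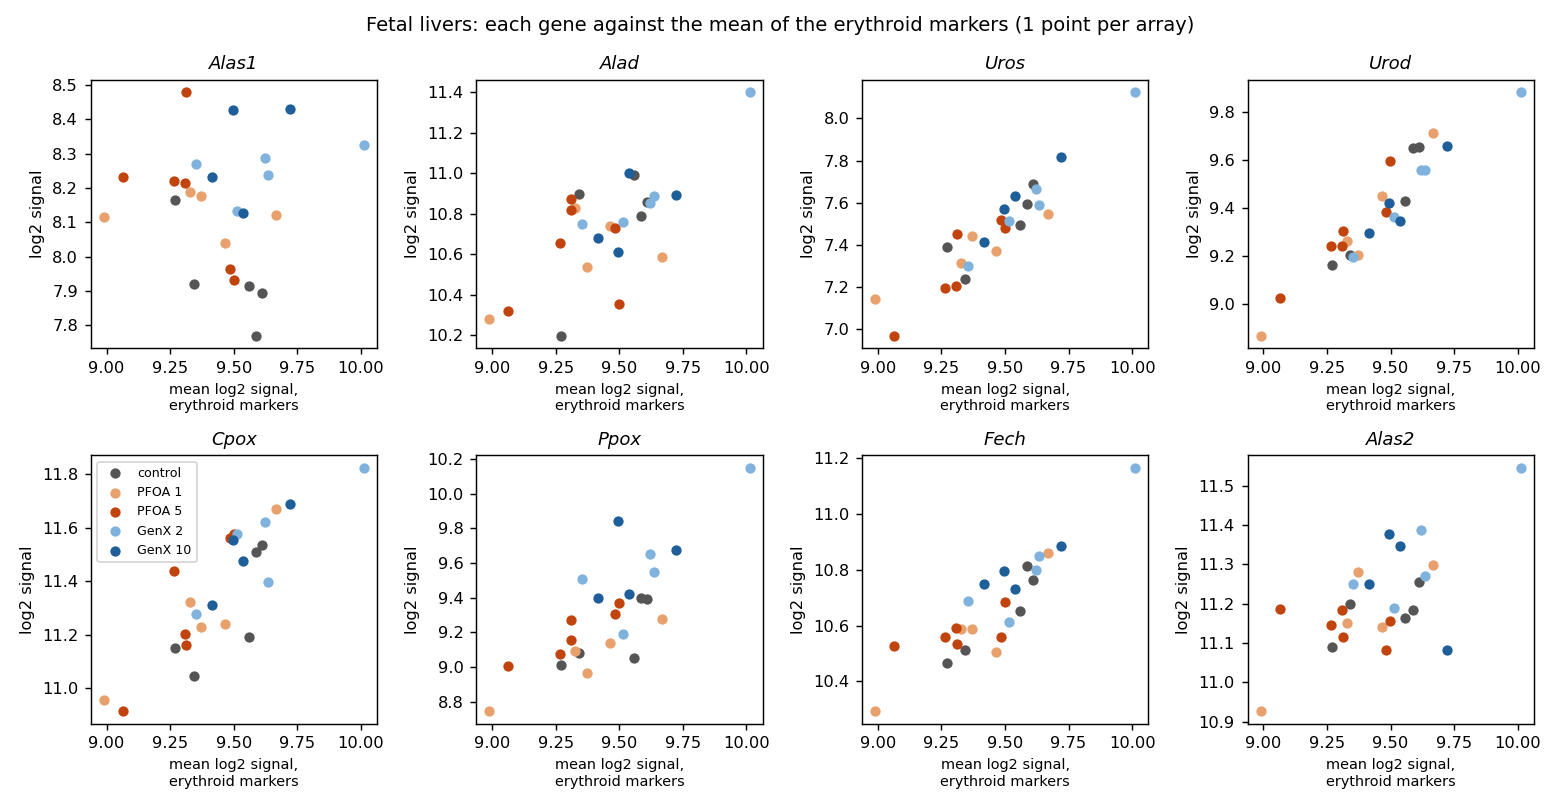
Log2 signal of each gene (vertical axis) against the mean log2 signal of the erythroid markers (horizontal axis) on the 25 fetal arrays, 1 point per fetus coloured by group. Urod (r = 0.95), Uros (0.93) and Fech (0.90) follow the marker mean closely, whereas Alas1 (r = -0.00) is spread without order along it.

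The members after Alad also moved with each other in fetal liver. Over the fetal arrays, Urod, Uros, Cpox, Ppox and Fech correlated pairwise with r of 0.74 to 0.89, and Alas1 with the other members with r of -0.09 to 0.37. In maternal liver the highest r of Alas1 with another member was 0.56, with Cpox, and it was 0.27 within groups. Of 4618 genes above background on every maternal array, those most like Alas1 over the 25 dams were Dusp3 (r = 0.90), Cbr1 (0.89) and Pnpla2 (0.89). Those most like Cpox were Cldnd1 (0.81), Fabp1 (0.74) and Paqr9 (0.74), and those most like Fech were Prpf8 (0.90), Aldh7a1 (0.89) and Rab5b (0.88). Of 3776 genes above background on every fetal array, Epb42 (0.94), a membrane protein of red cells, Eif2ak1 (0.93), the haem-regulated kinase of translation, and Apeh (0.93) were most like Fech. Slc4a1, the anion exchanger of red cells (0.77), Tnpo2 (0.76) and Ifrd2 (0.74) were most like Alad. Cpn1 (0.86), Sec24c (0.84) and Scpep1 (0.84) were most like Alas1. Those most like Uros were Slc16a10 (0.95), Tmod1 (0.94) and Dnmt1 (0.94). For Urod they were Lig1 (0.94), H3f3a-ps2 (0.94) and H3f3a-ps1 (0.93). For Cpox they were Usp24 (0.96), Camsap2 (0.95) and Gm8203 (0.95), and for Ppox Zcchc8 (0.92), Wdr48 (0.92) and Ncapd3 (0.92). These are the highest of many coefficients over arrays that share a normalization and the exposures, and they are given without a test.

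The next 4 lists are to be read against all genes. Of all genes 10.8% were higher and 9.04% lower in PFOA5 dams, 2.43% and 0.937% in GenX2 dams, and 7.55% and 6.22% in GenX10 dams, with medians of -0.05, -0.03 and -0.05. In fetuses the shares given above went with medians over all genes of 0.02 at PFOA1, -0.01 at PFOA5, -0.03 at GenX2 and -0.06 at GenX10. Other genes of haem synthesis and of its mitochondrial transport were counted from a list of which 11 were measured. In PFOA5 dams 5 of 11 were higher and none lower (median 0.20, against -0.05 over all genes). They included Lonp1, a mitochondrial protease (1.04 ± 0.08, adjusted p = 6.4e-09), Slc25a37, mitoferrin-1, which imports iron (adjusted p = 2.2e-06, with no size since it was above background on 1 of 5 PFOA5 arrays and on no control dam array), and Pgrmc1, a haem-binding membrane protein (0.47 ± 0.10, adjusted p = 0.0021). In GenX10 dams 5 of 11 were higher (median 0.26), among them Lonp1 (0.48 ± 0.08) and Abcb6, a porphyrin transporter (at least 1.17-fold, since it was not well above background in control dams, adjusted p = 0.014). In GenX2 dams 1 was called higher, Slc25a37 (adjusted p = 0.0013), which was above background on 1 of 5 GenX2 arrays and on no control dam array, and in PFOA1 dams none was called. In fetal liver 2 were higher at PFOA5, 1 at GenX2 and 2 at GenX10, each time including Pgrmc1 (0.43 ± 0.09, 0.33 ± 0.10 and 0.43 ± 0.10), and none at PFOA1. Clpx, a mitochondrial unfoldase known to act on Alas, was called in GenX10 fetuses (0.67 ± 0.16, adjusted p = 0.0080). Alas2 was called in no exposed group of either tissue.

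Genes that break down, export or scavenge haem numbered 10. In PFOA5 dams 5 were higher (median 0.30): they included Blvrb, a biliverdin reductase (0.71 ± 0.09), and Slc48a1, a haem transporter of endosomes and lysosomes (0.85 ± 0.12). Hmox1, a haem oxygenase, was higher as well (0.82, limma adjusted p = 0.015), above background on 4 of 5 PFOA5 and 2 of 5 control dam arrays. So was Flvcr2 (at least 1.10-fold), above background on 4 of 5 PFOA5 and no control dam arrays. GenX10 dams had 4 higher and 1 lower (median 0.31), with Blvrb (0.62 ± 0.09) and Slc48a1 (0.64 ± 0.12) among the higher. Flvcr2 was also among them, above background on 2 of 5 GenX10 and no control dam arrays. GenX2 dams had 2 called higher, Blvrb (0.56 ± 0.09) and Flvcr1, a haem exporter. Flvcr1 was also called in PFOA5 and GenX10 dams, but it was above background on 1 of 5 arrays of each and on no GenX2 or control dam array, so no size is given. In fetal liver the plasma scavengers haptoglobin and haemopexin were lower under GenX: Hp by -1.44 ± 0.28 and Hpx by -0.71 ± 0.17 in GenX2 fetuses, and Hp by -1.37 ± 0.30 and Hpx by -0.60 ± 0.18 in GenX10 fetuses (2 lower in each, with 1 higher in GenX2 fetuses and none in GenX10 fetuses). No gene of this list was called in either fetal PFOA group.

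Hepatic proteins that carry haem were counted over 23 measured genes. In PFOA5 dams 13 were higher and 2 lower (median 0.41), in GenX10 dams 9 higher and 2 lower (median 0.23), and in GenX2 dams 5 higher (median 0.25). Among them were fatty acid hydroxylases whose probe sets can share sequence with other Cyp4a genes. Cyp4a12a was at least 23.6-fold higher in PFOA5 dams, a bound since it was not well above background in control dams (mean signals of 12.18 and 5.04, adjusted p = 3.2e-07). Cyp4a14 was higher by 4.21 and Cyp4a31 by 2.21 in PFOA5 dams, with Cyp4a14 above background on 4 of 5 control dam arrays. In fetuses the counts were 4 higher at PFOA1, 6 higher and 4 lower at PFOA5, 7 higher and 4 lower at GenX2, and 6 higher and 4 lower at GenX10. Cyp4a14 was higher in each fetal group (5.14 at PFOA1, and 5.27 at PFOA5, GenX2 and GenX10), where 1 of 5 control fetuses had it above background. Cyp2e1 was lower in fetuses, at least 2.21-fold at PFOA5, 2.23-fold at GenX2 and 2.07-fold at GenX10, since it was not well above background in these exposed groups. In PFOA1, PFOA5, GenX2 and GenX10 fetuses the Alas1 differences were 0.19, 0.24, 0.32 and 0.37.

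Of 12 factors known to act on hepatic Alas1 transcription, 7 were higher and 1 lower in PFOA5 dams (median 0.36), 4 higher and 1 lower in GenX10 dams (0.22), and 4 higher in GenX2 dams (0.18). Ppargc1b was among the higher in each of these groups. It was not well above background in any of them or in control dams. Nr1d1 (1.37) and Bach1 (0.41) were also among the higher in PFOA5 dams. Each was above background on 5 of 5 PFOA5 and 1 of 5 control dam arrays. The counts do not separate factors that raise Alas1 from those that lower it. Nr1i2, the pregnane X receptor, was higher by 0.86 ± 0.11 in PFOA5 dams, 0.49 ± 0.11 in GenX2 dams and 0.67 ± 0.11 in GenX10 dams. Ppara, a receptor for fatty acids, was higher by 0.67 ± 0.13 in GenX2 and 0.57 ± 0.13 in GenX10 dams. The gene called lower in PFOA5 and in GenX10 dams was Ppargc1a, a coactivator that raises Alas1 on fasting (adjusted p = 7.4e-05 and 0.0077), which was not well above background in either or in control dams. In fetuses none was called at PFOA1, 2 were higher at PFOA5 (Nr1i2, at least 1.28-fold, since it was not well above background in control fetuses, and Foxo1, 0.53 ± 0.14), and 1, Foxo1, was higher at GenX2 (0.51 ± 0.14) and at GenX10 (0.71 ± 0.15). Foxo1 was above background in 2 of 5 control fetuses, and 1 gene of 12 is to be read against 3.90% of all genes higher at GenX2 and 4.42% at GenX10. All exposures in a tissue share their control arrays, so the comparisons with control are not independent of each other.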

How the data were processed

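Total RNA of 25 fetal livers and 25 maternal livers was hybridised to mouse whole-transcript arrays. The deposited values are log2 signals. The submitters' processing notes name RMA and the build mm10; versions are not given in the sources used here. As RMA includes quantile normalization, it partly hides a change that most genes share. The table holds 72688 features, of which 65956 are transcript clusters and 5222 negative controls. Probe sets were named from the platform annotation (32750 named, 1534 with several genes left out), the brightest was taken per gene, and 30743 genes were tested. The members and gene lists were chosen with earlier results of these data known.

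Fits used limma 3.58.1 (lmFit, eBayes) in R 4.3.3, 1 per tissue with 5 groups and 1 with 10 groups between tissues, with two-sided tests and Benjamini-Hochberg adjustment over all genes. Tables were read with data.table (version 1.17.8). All members are named in every comparison. Of the other lists, Alas2 and up to 3 genes with the smallest adjusted p are named, and others where they lay near background. The 3 genes of highest r were sought among genes above background on every array of the tissue. They are named for every member in fetal liver, and for Alas1, Cpox and Fech in maternal liver. Correlations with marker means used 100000 permutations (Python 3.11.15, numpy 2.4.6, pandas 2.3.3, scipy 1.17.1), and figures matplotlib 3.10.9. The fits were tested on simulated data. Replicates were individual dams, or fetuses taken from different litters, per the labels. Replicate numbers were not treated as pairs in the main fits. No array was left out of the main fits. Alternatives were array weights, median centring, a test restricted to genes above background (the filter on dim genes), quantile normalization repeated, the mean of probe sets, an intensity trend, only the compared groups, arrays with conflicting labels or low Xist left out, source names followed, a replicate block, and each array left out in turn. The number of arrays limits the precision. A fold written as at least N-fold sets the mean of the brighter group against the mean, over the arrays of the group not well above background, of the higher of the array's background percentile and the gene's own signal.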

Additional observations from a re-analysis of the deposited data

Results flagged for a closer look

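In groups of 4 to 6 arrays, 7 of 70 combinations of member and group had 1 array far from the rest by Dixon's test at the 95% level, where chance gives about 1 in 20. Alad had 3 of them. Control dam 1 was at 10.71, above the other control dams (10.10 to 10.23). Control fetus 4 was at 10.20, below the others (10.79 to 10.99), and GenX2 fetus 4 was at 11.40, above the others (10.75 to 10.89). Urod in GenX2 dam 4 was at 8.0, below the other GenX2 dams (8.15 to 8.20). Ppox was at 7.46 in control dam 1 (others 7.14 to 7.19) and at 7.23 in PFOA5 dam 5 (others 6.99 to 7.05), all at or below background. Fech in GenX2 dam 1 was at 9.05, above the other GenX2 dams (8.54 to 8.67). Outside the members, Alas2 in PFOA1 dam 2 was at 8.71, above the other PFOA1 dams (7.62 to 7.84).

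The effect of exposure on Alas1 differed between tissues at both high doses: fetal minus maternal effect was -1.44 ± 0.19 at PFOA5 and -0.95 ± 0.20 at GenX10 (limma adjusted p = 7.7e-07 and 0.0025).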

How the results depend on the processing

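Of 23 calls of single members, 13 held under every alternative run and 10 were lost under at least 1, while 10 uncalled values passed under at least 1. No call changed sign; uncalled values changed sign 46 times over the settings and 78 times over the arrays left out. The number of members called was 1 of 7 in GenX2 dams (3 in the main result) after a repeated quantile normalization and with the replicate block, which made no other count of members differ by more than 1.5 times. With the block, Alas1 and Cpox in GenX2 dams (adjusted p = 0.0501 and 0.058) and Cpox in GenX10 dams (0.0524) were no longer called. The labels do not say whether replicate numbers pair the samples. In no comparison were all same-numbered pairs correlated above 0.1 (at most 3 of 5, between GenX10 and GenX2 dams). Single pairs varied, from -0.31 to 0.59 between PFOA1 and control fetuses, and a batch shared by number was not tested. In GenX2 fetuses the count was 0 in place of 1 after a repeated quantile normalization, with array weights and without the fetuses of low Xist, and 2 with the filter on dim genes; in GenX10 fetuses it was 0 after a repeated quantile normalization and 2 with the filter. Between PFOA5 and PFOA1 dams it was 1 in place of 3 with median centring, between GenX10 and GenX2 dams 1 in place of 0 with the filter, which tests fewer genes, and for the PFOA5 effect between tissues 2 in place of 1 with array weights. Otherwise the causes were not tested. Leaving out each array in turn gave 1 to 3 members in GenX2 dams, 1 to 3 in GenX10 dams, 2 to 3 in PFOA5 dams, 0 to 1 in PFOA1 dams, 1 to 3 between PFOA5 and PFOA1 dams, 0 to 2 in GenX2 fetuses, 0 to 1 in GenX10 fetuses, 0 to 1 in PFOA5 fetuses and 7 between control tissues. Following the source names, or leaving out the 2 arrays with conflicting labels, changed no call of a member. Uros in both tissues and Ppox in dams lay near background, which limits what their values can show.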
